A study of Mus musculus with 4 samples.

Results

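Heat shock proteins and chaperones are represented here by 61 genes of 10698 with a named spot, carried by 75 spots of 13738. They were chosen by symbol, with earlier results of these data known. They are the small heat shock protein genes (Hspb and Cryab), the HSP70 and HSP110 genes (Hspa and Hsph1) and the HSP90 genes. Also included are Hspd1 and Hspe1, all Dnaj genes, and the Cct genes from Cct2 to Cct8. The samples came from CA1, a pyramidal cell field of the mouse hippocampus, of young male C57BL/6J mice. The MK group received MK-801, a blocker of the NMDA glutamate receptor, without conditioning. The MK C+S group received MK-801 1 h before contextual fear conditioning, in which 2 min in a chamber new to the animal ended with a foot shock of 1 s at 0.5 mA, given 3 times. Both groups therefore carried the drug, at a labelled 300 micrograms per g body weight, and no group without the drug was analysed here. RNA was extracted 1, 2, 4 or 6 h later, and at each time a single array carried both groups in different dyes. Where 4 values of a gene or spot follow each other below, they are those at 1, 2, 4 and 6 h.

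The values are log ratios per spot from 4 arrays, each with Cy3 (green) for MK and Cy5 (red) for MK C+S. The deposited table states neither the direction nor the base of the logs. Ratios are usually written as red over green, so MK C+S is likely the higher group where a value is above 0. Base 10 was assumed, so that 2-fold corresponds to 0.301. No dye swap was made, so an effect of dye and one of conditioning cannot be told apart. No time had a second array, so a value at 1 time has no error, and the labels do not say from how many mice each extract came. Ratios carry no level, so the CA1 origin of the RNA could not be checked by its markers, and fewer cells of a type and less RNA per cell cannot be told apart.

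Chaperones bind unfolded proteins and help them to fold, and many of them were first found as proteins that cells make after heat. In the cytosol, HSP70 works with J proteins, which deliver clients and trigger its ATPase, and hands some clients on to HSP90 or to the barrel-shaped chaperonin CCT. Heat shock factor 1 switches on the inducible members through heat shock elements in their promoters, while the unfolded protein response switches on the members of the endoplasmic reticulum (ER) through other elements. In brain the constitutive members are abundant in neurons, and several small heat shock proteins are found in glia and vessels.

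On the arrays at 1, 2, 4 and 6 h, 56, 60, 59 and 58 members had a value, and 54 had one at every time. Hspb7 had none. The members' median was 0.0181, 0.0491, 0.00974 and 0.0104 in time order, against 0.00130, -0.000738, -0.000952 and -0.00618 over all genes. Above 0 were 29 of 56 members at 1 h, 40 of 60 at 2 h, 33 of 59 at 4 h and 31 of 58 at 6 h, where the shares of all genes above 0 were 50.4%, 49.7%, 49.8% and 48.6%. A difference of 2-fold or more was reached by 7 of 56, 9 of 60, 4 of 59 and 6 of 58 members, with 8.47%, 6.58%, 7.07% and 21.9% of all genes past it. At 1 h 4 members were past 2-fold above 0 and 3 below (5.12% and 3.35% of all genes), and at 2 h 5 above and 4 below (2.44% and 4.14%). At 4 h there were 3 above and 1 below (2.49% and 4.58%), and at 6 h 3 each way (10.2% and 11.7%). Read against these shares, the members exceeded the background most at 2 h in the higher direction, and at 6 h they had fewer large values than genes at large. The 6 h array had the widest spread over all genes, with a median absolute deviation of the spots of 0.146 against at most 0.103 on the others. At 1 h, genes of the choroid plexus and ependyma list stood apart, with 7 of 10 at 2-fold or more above 0, a median of 0.469 and a range of -0.235 to 1.501.

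**Figure D1:**
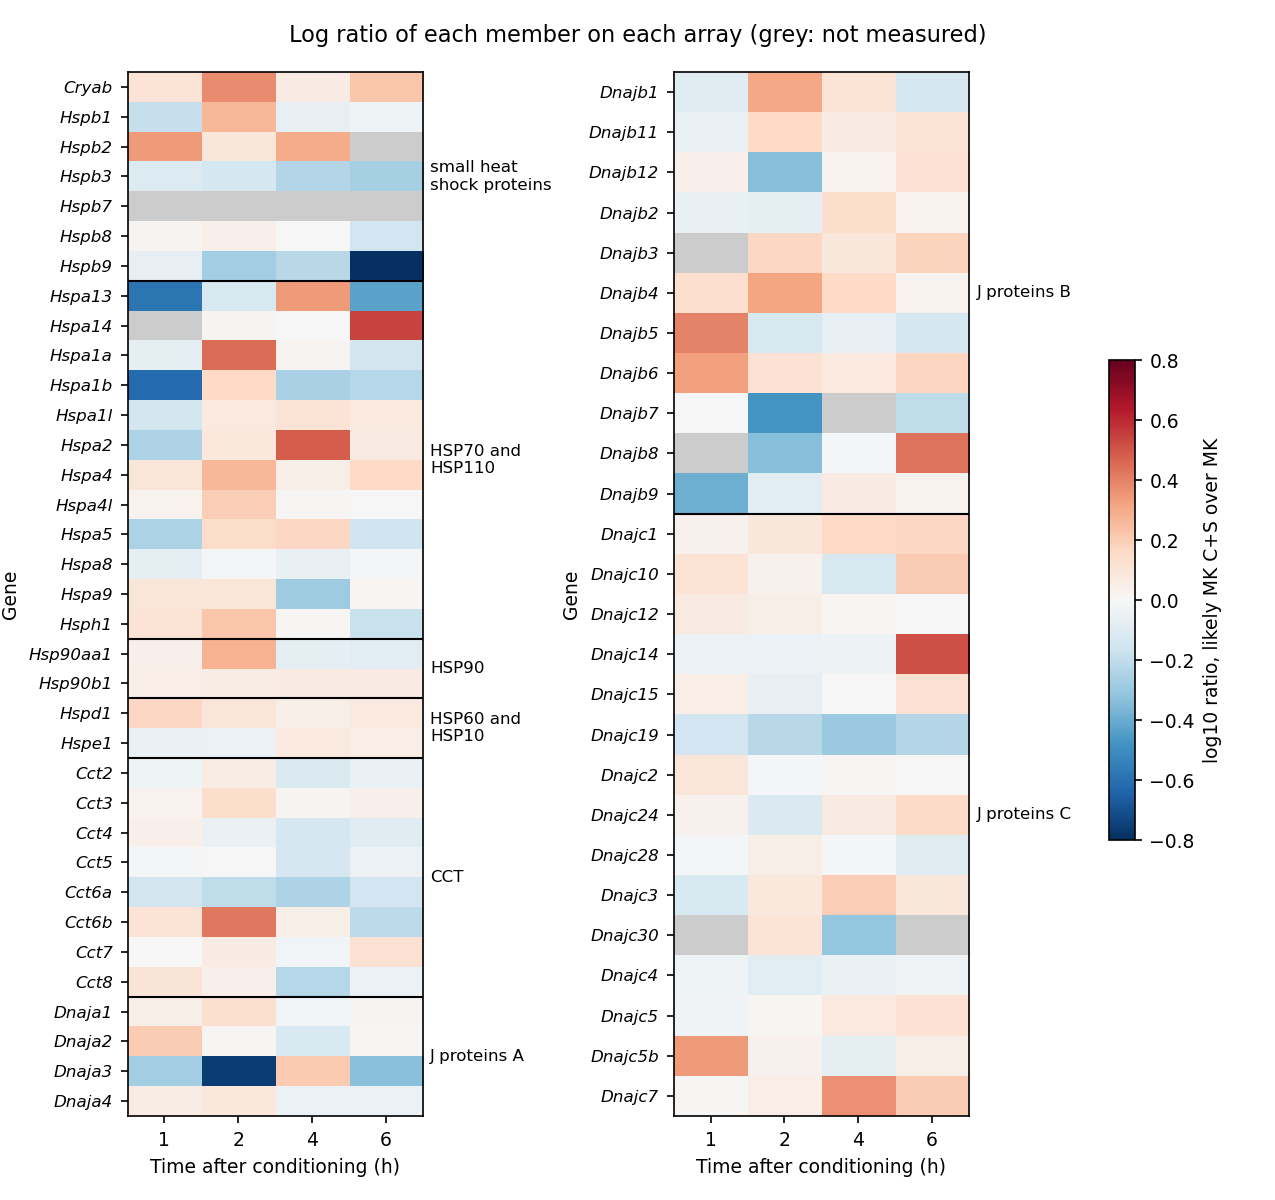
Log10 ratio of each of the 61 members (rows, by class) at 1, 2, 4 and 6 h (columns), red above 0, blue below 0 and grey where not measured. Hspa1a (0.446), Cryab (0.379), Dnajb1 (0.310) and Hsp90aa1 (0.279) are red at 2 h, while Hspa8 stays pale on all arrays.

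The pattern that stands out among the members lies at 2 h, in a list of textbook heat shock genes. The list holds Hspa1a, Hspa1b, Hspb1, Hsph1, Hsp90aa1, Cryab and Dnajb1. It also holds the constitutive, mitochondrial and ER genes Hspa8, Hspa9, Hspd1, Hspe1, Hspa5 and Hsp90b1. Among the latter, Hspa5 (0.145), Hspa9 (0.0991), Hspd1 (0.0954) and Hsp90b1 (0.0563) were above 0 at 2 h, and Hspa8 (-0.00892) and Hspe1 (-0.0449) below. Of 13 textbook heat shock genes on the arrays, 11 were above 0 at 2 h, with a median of 0.162, against 7 of 13 below 0 at 1 h with a median of -0.0546. At 4 and 6 h the medians were 0.0239 and -0.0361. The other members, 47 of them measured at 2 h, had a 2 h median of 0.0355. The textbook median at 2 h was the value of Hspa1b, a mean of spots at 0.530 and -0.206, and that gene is among the 11. With each spot on its own, 12 of 15 textbook spots were above 0 at 2 h, with a median of 0.222. The list was chosen with earlier results of these data known, so its direction is not independent evidence.

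Hspa1a, an inducible cytosolic HSP70, stood at -0.0730, 0.446, 0.0239 and -0.144. It was high at 2 h alone, where it reached 2.79-fold, and 0.473% of all genes measured on that array had a higher value. Hspa1b, its near-identical neighbour, had a pair of spots made from the same sequence record. Spot 14566 gave -0.359, 0.530, 0.103 and -0.0870. Spot 15862 gave -0.882, -0.206, -0.621 and -0.368. The spots disagreed in level and, at 2 and 4 h, in sign, but both had their highest value at 2 h, which lay 0.889 and 0.675 above 1 h. The transcripts of Hspa1a and Hspa1b are so alike that spots of one may bind RNA of the other, so their separate values are uncertain.

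The promoters of this pair and of other inducible members were searched for the sequence that heat shock factor 1 binds. A core heat shock element was searched as 2 neighbouring units, GAANNTTC or TTCNNGAA (each reads the same on both strands), in the 250 bases before each start site in RefSeq (GRCm38.p6). A longer form of 3 units was GAANNTTCNNGAA or, on the other strand, TTCNNGAANNTTC, which contains the shorter one. Windows are listed for 49 of the 61 members. The promoters below are printed 5′ to 3′ with matches in capitals, and they are shown because the first 4 are cytosolic stress genes with values above 0 at 2 h (for Hspa1b, 1 of 2 spots) that hold the element, and Hspd1 holds the longer form. Dnajb1, past 2-fold at 2 h, has a window with 0 matches and is not printed, and Cryab and Hsp90aa1 have no window listed. Hspa1a lies at chr17:34972157-34972406, minus strand, Hspa1b at chr17:34959239-34959488, minus strand, Hspb1 at chr5:135887669-135887918, plus strand, Hsph1 at chr5:149636316-149636565, minus strand and Hspd1 at chr1:55087933-55088182, minus strand.
Hspa1a: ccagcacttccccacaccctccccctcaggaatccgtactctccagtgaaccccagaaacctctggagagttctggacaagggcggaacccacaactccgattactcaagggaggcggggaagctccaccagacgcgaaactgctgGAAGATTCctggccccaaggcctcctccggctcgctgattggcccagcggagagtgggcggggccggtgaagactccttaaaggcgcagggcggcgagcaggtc
Hspa1b: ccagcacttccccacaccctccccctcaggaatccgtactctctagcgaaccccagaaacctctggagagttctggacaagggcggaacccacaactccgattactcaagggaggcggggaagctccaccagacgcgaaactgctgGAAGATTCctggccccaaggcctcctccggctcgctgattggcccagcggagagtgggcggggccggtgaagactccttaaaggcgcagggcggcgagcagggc
Hspb1: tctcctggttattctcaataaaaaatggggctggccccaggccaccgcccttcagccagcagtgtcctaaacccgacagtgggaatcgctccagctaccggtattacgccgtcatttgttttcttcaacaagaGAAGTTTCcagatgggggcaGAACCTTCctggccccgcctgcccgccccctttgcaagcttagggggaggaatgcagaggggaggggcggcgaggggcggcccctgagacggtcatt
Hsph1: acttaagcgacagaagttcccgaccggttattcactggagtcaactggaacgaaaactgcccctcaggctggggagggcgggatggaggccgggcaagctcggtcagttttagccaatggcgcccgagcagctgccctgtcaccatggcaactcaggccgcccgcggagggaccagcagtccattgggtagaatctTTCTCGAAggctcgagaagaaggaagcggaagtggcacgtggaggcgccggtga
Hspd1: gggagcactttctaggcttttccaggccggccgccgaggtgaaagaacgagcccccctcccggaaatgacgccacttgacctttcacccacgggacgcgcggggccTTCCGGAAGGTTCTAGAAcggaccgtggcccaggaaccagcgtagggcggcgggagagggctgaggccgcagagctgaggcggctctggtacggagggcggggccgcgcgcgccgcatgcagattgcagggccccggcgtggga

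The Hspa1a and Hspa1b stretches were identical at 247 of 250 positions, with the single match starting at position -104 from the start site in both. Hspb1 had 2 matches, and in Hspd1 the overlapping matches of the 3-unit form join into 1 run of capitals. The 2-unit form was present in 12.8% of all 32851 windows and in 16 of 65 windows of the members, and the 3-unit form in 0.466% and in 4 of 65. The 4 windows belong to Dnajb6, Hspd1 and Hspe1. Hspd1 and Hspe1 had the same counts, 2 matches of the 3-unit form and 3 of the 2-unit form. Whether these are the same site was not tested, so their matches may not be independent. At 2 h the 14 members with a 2-unit match had a median of 0.104 with 12 above 0, and the 34 measured without one a median of 0.0395 with 20 above 0. At 1, 4 and 6 h the medians with a match were 0.0141, -0.0359 and -0.0421, and without one -0.00499, 0.0291 and 0.0344. The 14 include both Hspa1a and Hspa1b, whose windows are nearly the same, and both Hspd1 and Hspe1. The split by the 3-unit form did not favour 2 h. The 3 members with that form had medians of 0.166, 0.0954, 0.0797 and 0.0753 in time order, highest at 1 h. At 2 h 2 of these 3 were above 0, against 30 of 45 measured without the form. A match is a description of these letters and not evidence of binding.

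Among the other cytosolic stress genes, Hsp90aa1, the inducible HSP90, rested on a pair of spots that agreed closely. Spot 12530 gave 0.0431, 0.297, -0.101 and -0.0771. Spot 1021 was not measured at 1 h and gave 0.261, -0.0531 and -0.0917 at the later times. Both were high at 2 h and slightly below 0 afterwards, and the gene's 2 h value was 1.90-fold. Dnajb1, the main J protein partner of inducible HSP70, stood at -0.0961, 0.310, 0.110 and -0.131, with 2-fold just passed at 2 h. Hsph1, the HSP110 that reloads HSP70 with ATP, stood at 0.108, 0.222, 0.00974 and -0.178. It was above 0 at 1 and 2 h, near 0 at 4 h and below it at 6 h.

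Of the small heat shock proteins, Hspb1 (HSP27) stood at -0.186, 0.268, -0.0653 and -0.0361, above 0 at 2 h, though the sign at 6 h turned when the median of neighbouring spots was removed (to 0.112). Cryab, which encodes alphaB-crystallin, a small heat shock protein of glia, stood at 0.112, 0.379, 0.0670 and 0.223. It was above 0 on all 4 arrays and reached 2.40-fold at 2 h, its highest value before any correction by neighbouring spots. Beside it, 7 of 10 oligodendrocyte markers were above 0 at 2 h, with a median of 0.0450 and a range of -0.113 to 0.133, and Olig2 was not measured on any array. Of the astrocyte markers 7 of 12 were above 0 at 2 h, with a median of 0.0698 and a range of -0.249 to 0.288. The oligodendrocyte medians at 1, 4 and 6 h were -0.0402, -0.0509 and 0.00535, with 3, 4 and 5 of 10 above 0. Those of the astrocyte markers were -0.00307, 0.0309 and 0.0784, with 6, 9 and 10 of 12 above 0. Endothelial and mural markers had a median of -0.130 at 2 h, with 3 of 13 above 0 and a range of -0.808 to 0.459. The part of cell makeup in these values was not tested.

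Of the remaining HSP70 relatives, Hspa4 and Hspa4l, further nucleotide exchange factors of the HSP110 kind, were at 0.264 and 0.196 at 2 h. Hspa4 was above 0 on every array, with 0.0950, 0.0441 and 0.159 at the other times. Dnajb4, a J protein close to Dnajb1, had spots at 0.451 and 0.175 at 2 h, and each spot was highest there. By contrast the constitutive cytosolic HSP70, Hspa8, stayed between -0.0756 and -0.00839 on all 4 arrays, the narrowest range of the HSP70 class.

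**Figure D2:**
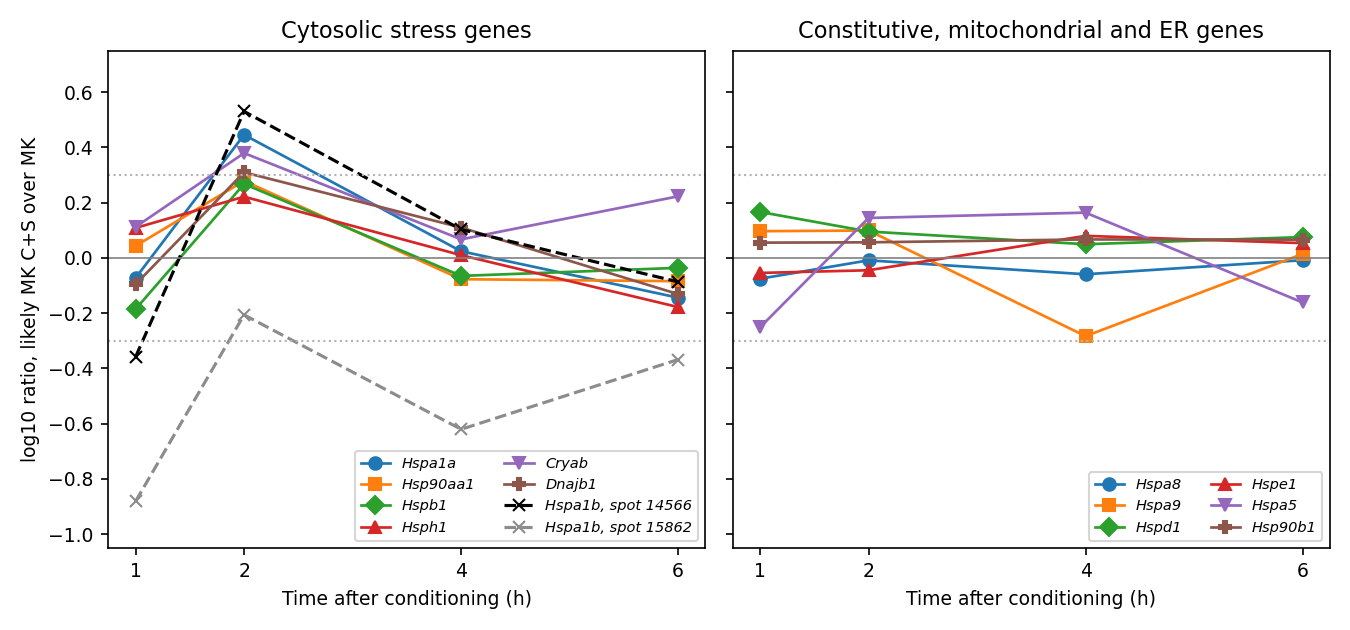
Log10 ratio against time after conditioning for textbook heat shock genes, 1 line per gene, with each Hspa1b spot as a dashed line; dotted lines mark 2-fold. On the left all lines have their highest point at 2 h, from 0.222 (Hsph1) to 0.530 (Hspa1b spot 14566), with Hspa1b spot 15862 lower at -0.206; on the right Hspa8, Hspd1, Hspe1 and Hsp90b1 lie between -0.0756 and 0.166 throughout.

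With 1 array at 2 h, the contrast of 2 h with the mean of 1, 4 and 6 h can borrow its error only from the spread between those arrays. In limma, over 8553 genes with a value on all arrays, 0 genes passed at an adjusted p under 0.05 (0%), members included. At an unadjusted p under 0.05 there were 6 of 54 members, against 1.61% of all genes, 4 higher and 2 lower (0.924% and 0.69%). Higher at 2 h were Hspa1a (by 0.510, SE 0.135), Hspa1b (0.531), Cct6b (0.438) and Hspb1 (0.363), and lower were Dnaja3 (-0.624) and Dnajb12 (-0.405). The lowest adjusted limma p among members was 0.999. This contrast was chosen after the 2 h values were seen, and its count at an unadjusted p under 0.05 varied with the setting. It was 2 of 55 members when the 4 h array was left out (84 of 8628 genes), 3 of 55 when the 6 h array was (155 of 8731) and 3 of 63 with each spot on its own (133 of 10042). It was 7 of 54 both with arrays scaled to 1 median absolute deviation (206 of 8553) and with array weights (190 of 8553). The 2 h value was the highest of the 4 arrays in 20 of 54 members, against 22.5% of all genes, and the lowest in 7 of 54, against 20.9%. Of members measured at any time, 22 of 60 passed 2-fold at 1 time or more, near the 32.5% of all genes.

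Removing the median of 51 neighbouring spots took the median of all members at 2 h to 0.0164. The textbook genes kept a median of 0.178, with 10 of 13 above 0, and Hspa1a was then at 0.469. Spots of Dnajb1 (15717), Hspb1 (15778) and the lower Hspa1b spot (15862) have close numbers. Of the named spots within 50 numbers of spot 15862, 10 of 83 were 2-fold or more below 0 at 1 h and 28 of 83 at 6 h, against 0 and 15 of 78 around spot 14566. At 2 and 4 h the counts were 11 and 12 of 83 against 3 and 4 of 78. The medians of these neighbours lay closer, at 0.0354, -0.0391, -0.00320 and -0.0936 around spot 15862. Around spot 14566 they were 0.0431, -0.00148, -0.0198 and -0.0825. At 6 h the count was 39 of 75 around Dnajb1, with a median of -0.374, and 32 of 82 around Hspb1, with a median of -0.162. With the running median removed, the 6 h value of Dnajb1 turned from -0.131 to 0.234, and that of Hspb1 from -0.0361 to 0.112. Cryab was then as high at 6 h (0.363) as at 2 h (0.360). The level of these genes at 6 h, and with it the peak of Cryab at 2 h, therefore depends on this setting. Hsp90b1 at 2 and 4 h (-0.00744 and -0.0407) also turned in sign, as did Hspa8 at 6 h. The part of spot position in these values was not tested.

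Members of the ER had their lowest median at 1 h and their highest at 4 h. Of 8 such members, grouped after their values were seen and without Dnajb12 and other J proteins that face the cytosol, 5 were below 0 at 1 h with a median of -0.0872, and 7 were above 0 at 4 h with a median of 0.113. Medians at 2 and 6 h were 0.0700 and 0.0792. Hspa5 (BiP), the HSP70 of the ER, stood at -0.252, 0.145, 0.164 and -0.162. Hspa13, an ER-associated HSP70 relative, had its times in the same order, at -0.587, -0.127, 0.341 and -0.427. Both were below 0 at 1 and 6 h and highest at 4 h, each on a single spot.

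Dnajb9 (ERdj4), a J protein that ER stress induces, had spots at -0.442 and -0.344 at 1 h, -0.157 and -0.0295 at 2 h, 0.0260 and 0.109 at 4 h and 0.0471 and 0.0153 at 6 h. The spots, made from the same sequence record, were low together at 1 h, more than 2-fold below 0. Dnajc3 (p58IPK), an ER J protein that also restrains the kinase PERK, had spots at -0.210 and -0.0346 at 1 h and at 0.202 and 0.195 at 4 h. Hsp90b1 (GRP94), the HSP90 of the ER, was flat, between 0.0551 and 0.0667 on all 4 arrays. Dnajb11 (ERdj3) was at -0.0519, 0.158, 0.0674 and 0.108 in time order, and Dnajc10 (ERdj5), which reduces disulfide bonds, was the member below 0 at 4 h (-0.127).

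The ER stress element, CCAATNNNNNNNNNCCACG or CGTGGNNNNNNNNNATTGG on the other strand, was found before the starts of Hspa5, Hsp90b1 and Dnajc3 and of no other member with a window. It was present in 0.113% of all windows. The promoters of Hspa5 (chr2:34771840-34772089, plus strand) and Hsp90b1 (chr10:86705445-86705694, minus strand, GRCm38.p6) are shown because genes with the same element differed in their time course.
Hspa5: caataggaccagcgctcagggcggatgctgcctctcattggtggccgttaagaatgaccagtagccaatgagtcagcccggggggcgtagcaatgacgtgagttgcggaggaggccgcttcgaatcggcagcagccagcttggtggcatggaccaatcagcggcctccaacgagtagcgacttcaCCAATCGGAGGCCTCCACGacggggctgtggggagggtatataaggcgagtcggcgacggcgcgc
Hsp90b1: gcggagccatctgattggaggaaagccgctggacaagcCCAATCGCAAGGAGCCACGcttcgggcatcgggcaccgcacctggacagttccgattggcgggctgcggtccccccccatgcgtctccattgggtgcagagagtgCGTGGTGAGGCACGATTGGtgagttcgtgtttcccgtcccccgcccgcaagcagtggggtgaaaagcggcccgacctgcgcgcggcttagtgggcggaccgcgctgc

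Hspa5 holds 1 match in capitals and Hsp90b1 2, and their values ran from -0.252 to 0.164 for the former and from 0.0551 to 0.0667 for the latter. Dnajc3, the remaining member with the element, stood at -0.122, 0.0838, 0.199 and 0.0923. Like Hspa5 it was lowest at 1 h and highest at 4 h, so the flat course was that of Hsp90b1 alone. Other ER folding and unfolded protein response genes also lay low at 1 h, where 17 of 21 were below 0 with a median of -0.101. At 2, 4 and 6 h their medians were 0.00603, 0.00481 and -0.0129, and at 4 h 11 of 21 were above 0 and 10 below. Canx, the membrane lectin chaperone calnexin, stood at -0.451, -0.115, 0.231 and -0.132. The disulfide isomerase Pdia3 was also highest at 4 h, with -0.101, -0.00594, 0.205 and -0.214. Canx and Pdia3 were picked after their values were seen, so their 4 h peaks do not stand for the list. Sdf2l1, a partner of Hspa5 that ER stress induces, had 1 spot at -0.253, 0.116, 0.585 and 0.108 and another measured only at 1 h (-2.61) and 6 h (-0.844). In the mean over times limma called 0 of the 20 tested genes of that list, with 3 at an unadjusted p under 0.05 (Pdia5, Ddit3 and Hyou1, all below 0), near the 11.4% of all genes. At 1 h these values stand beside the choroid plexus signal of that array, whose part in them was not tested.

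**Figure D3:**
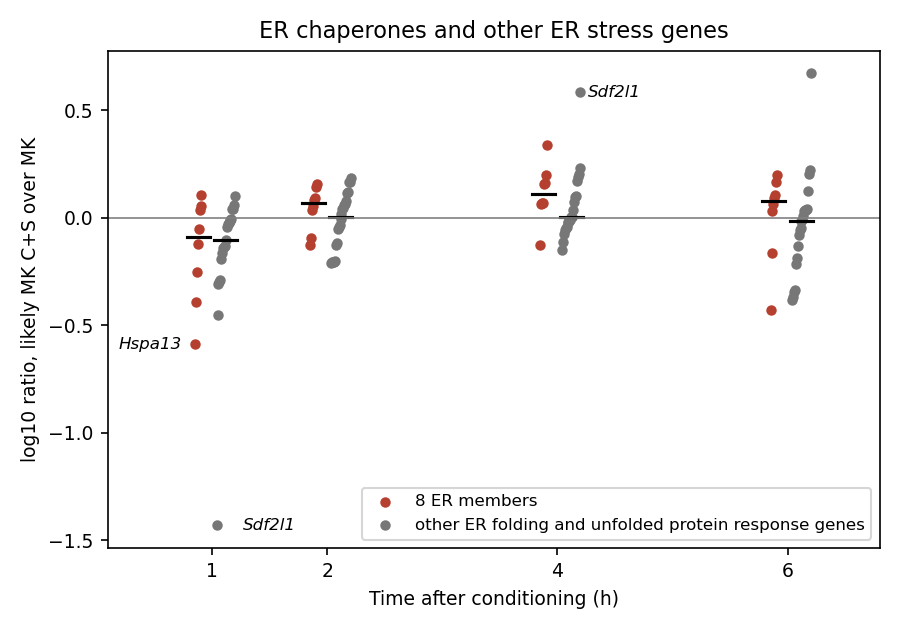
Log10 ratio of the 8 ER members (red) and of 22 other ER folding and unfolded protein response genes (grey) at each time, 1 point per gene, with short lines at the medians. At 1 h both medians lie below 0 (-0.0872 and -0.101), and at 4 h they are 0.113 and 0.00481.

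Mitochondrial members showed no common course, with medians from -0.0133 to 0.0143 over the times. Hspd1 (HSP60) and Hspe1 (HSP10), the chaperonin and its lid, stayed within -0.0546 and 0.166, and Hspd1 was above 0 on all 4 arrays. Hspa9 (mortalin), the HSP70 of the matrix, stood at 0.0966, 0.0991, -0.283 and 0.0143. Dnaja3 (Tid1), its J protein, stood at -0.275, -0.758, 0.209 and -0.336. It was below 0 except at 4 h, and its 2 h value, 5.72-fold lower, was the lowest of any member on that array, on a single spot. Dnajc19, a J protein of the import motor at the inner membrane, was below 0 throughout, at -0.156, -0.223, -0.295 and -0.233.

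The subunits of CCT, which folds actin and tubulin, had their lowest median at 4 h. Of 8 subunits, 6 were below 0 at 4 h with a median of -0.126, after 0.0130 at 1 h and 0.0484 at 2 h. Cct6a stood at -0.148, -0.205, -0.247 and -0.153, below 0 on each array. Cct8 went from 0.103 at 1 h to -0.230 at 4 h, and Cct4 from 0.0386 to -0.141. The exceptions at 4 h were Cct3 (0.0210) and Cct6b (0.0475), a testis form of the sixth subunit that was at 0.421 at 2 h. Tcp1, the first subunit, is no member by symbol and was at -0.191 at 4 h.

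The 30 J proteins as a whole stayed near 0, with medians of 0.0349, 0.0234, 0.0172 and 0.0312, and scattered widely at single times. Dnajc7, a J protein that binds both HSP70 and HSP90, had a matching pair of spots at 4 h (0.381 and 0.350) and values of 0.157 and 0.250 at 6 h, after 0.0615 and -0.0375 at 1 h and 0.0786 and 0.0214 at 2 h. Both of its spots were highest at 4 h. Dnajb5 was at 0.398 at 1 h and between -0.142 and -0.0665 later. Dnajb6, a J protein that holds back aggregation of polyglutamine, was above 0 on all arrays, but its 1 h value was the mean of 0.0650 and 0.587. Dnajb12, a membrane J protein of the ER, had spots at -0.433 and -0.253 at 2 h that agreed in sign, and at -0.312 and 0.541 at 6 h that did not. Dnajc5, the synaptic vesicle chaperone CSPalpha, stayed between -0.0301 and 0.118.

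Further values past 2-fold came from members with 1 spot, at 1 time each except for Dnajb8, which passed at 2 and 6 h in opposite directions. At 1 h they were Dnajc5b (0.338) and Hspb2 (0.338), at 2 h Dnajb7 (-0.479) and Dnajb8 (-0.338), at 4 h Hspa2 (0.487) and Dnajc30 (-0.308), and at 6 h Hspa14 (0.540), Dnajc14 (0.515) and Dnajb8 (0.436). Hspb9, a testis form, passed at 6 h (-0.795) and was at -0.276 and -0.220 at 2 and 4 h. Several of these genes, among them Dnajb7, Dnajb8 and Hspb9, are best known from testis, and without intensities it could not be seen whether their spots lay above background.

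The members not yet described stayed below 2-fold on every array. Among the J proteins of the cytosol, Dnaja1, a partner of Hspa8, stood at 0.0439, 0.126, -0.0219 and 0.0188, and Dnajb2, a form enriched in neurons, at -0.0578, -0.0799, 0.141 and 0.0254. Dnaja2 stood at 0.204, 0.0122, -0.123 and 0.00658 and Dnaja4 at 0.0619, 0.0824, -0.0498 and -0.0481, each the mean of a pair of spots. Dnaja1, Dnaja2 and Dnaja4 all lay below 0 at 4 h. Dnajc2, which assists folding at the ribosome, had 4 spots, of which spot 9037 was at -0.291 and -0.288 at 2 and 6 h while the other 3 lay between -0.0463 and 0.150 on all arrays. Dnajc1, a membrane J protein of the ER, was above 0 on all 4 arrays at 0.0356, 0.0929, 0.158 and 0.167, and Dnajc4 below 0 on all at -0.0337, -0.0869, -0.0532 and -0.0295.

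Hspb3, a small heat shock protein known from muscle, was below 0 on every array at -0.107, -0.139, -0.235 and -0.267, opposite in sign to Cryab throughout. Hspb8, which works with Bag3, stood at 0.0242, 0.0406, 0.00348 and -0.156, near 0 until 6 h. Hspa1l, a testis form of HSP70 in the same gene cluster as Hspa1a, stood at -0.150, 0.0786, 0.109 and 0.0812, without the 2 h peak of its neighbour. Of the other CCT subunits, Cct2 stood at -0.0370, 0.0583, -0.115 and -0.0551, Cct5 at -0.0158, 0.00316, -0.136 and -0.0480 and Cct7 at -0.00499, 0.0680, -0.0192 and 0.121, and each had its lowest value at 4 h. Dnajb3 was not measured at 1 h and was at 0.165, 0.0937 and 0.179 later. Dnajc12, Dnajc15, Dnajc24 and Dnajc28 ranged from -0.115 to 0.151 over all their values.

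**Figure D4:**
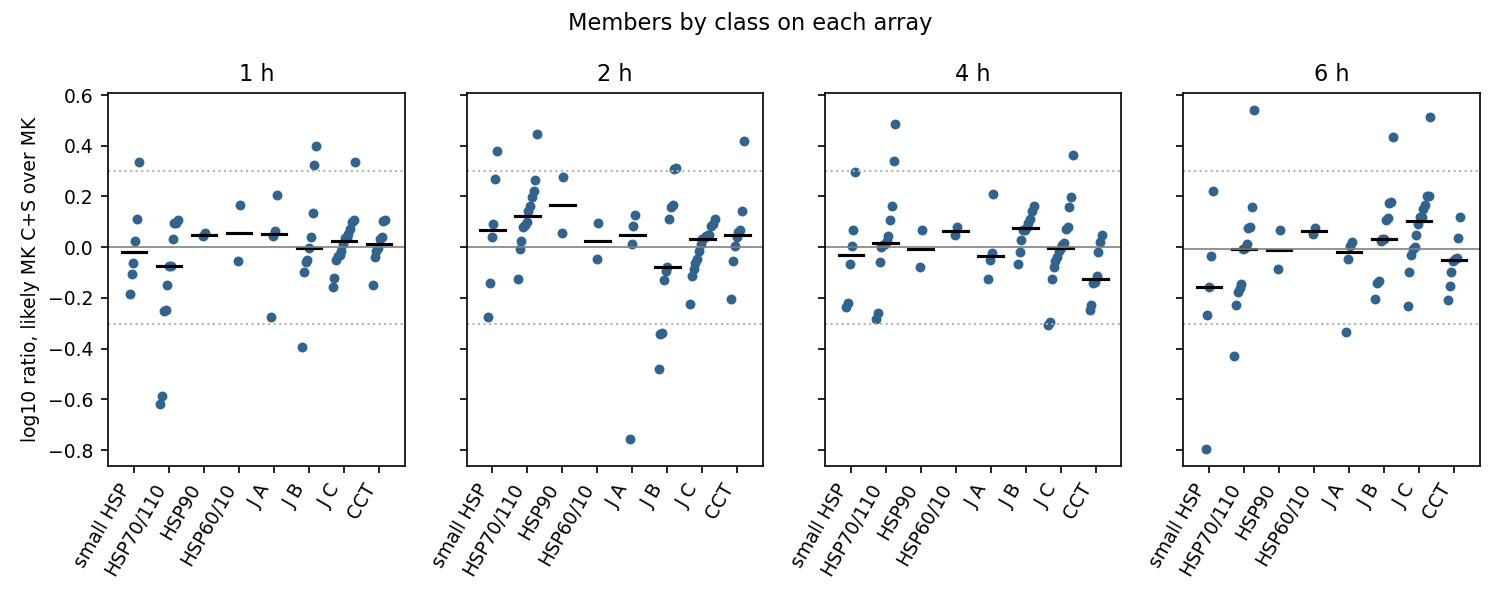
Log10 ratio of each measured member by class at each time, 1 point per gene, with the class median as a short line, all genes' median as a grey line and 2-fold as dotted lines. The HSP70 and HSP110 median moves from -0.0756 at 1 h to 0.122 at 2 h, and the CCT median is lowest at 4 h (-0.126).

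In 12 members 2 or more spots could be compared. Only those of Hspa1b, Hsp90aa1 and Dnajb9 share a sequence record, so spots of the other 9 may also differ in the transcripts they bind. Pairs of spots of 1 member had the same sign in 8 of 11 at 1 h, 10 of 16 at 2 h, 10 of 14 at 4 h and 9 of 17 at 6 h, where pairs of spots over all genes agreed in 52.6%, 52.7%, 54.0% and 53.3%. The median absolute difference within the members' pairs was 0.176, 0.119, 0.0759 and 0.137, against 0.144, 0.144, 0.132 and 0.231 over all genes. Dnajc2, with 4 spots, supplied several of the members' pairs, so the pairs are not independent. Pairs of Hsp90aa1, Dnajb9 and Dnajc7 tracked each other over time, whereas spots of Hspa1b, Dnajb12, Dnajb6, Dnajb4, Dnajc2 and Dnajc3 differed by more than 2-fold at 1 time or more. The pooled SD between spots of 1 gene, over all genes, was 0.225, 0.204, 0.168 and 0.329.

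**Figure D5:**
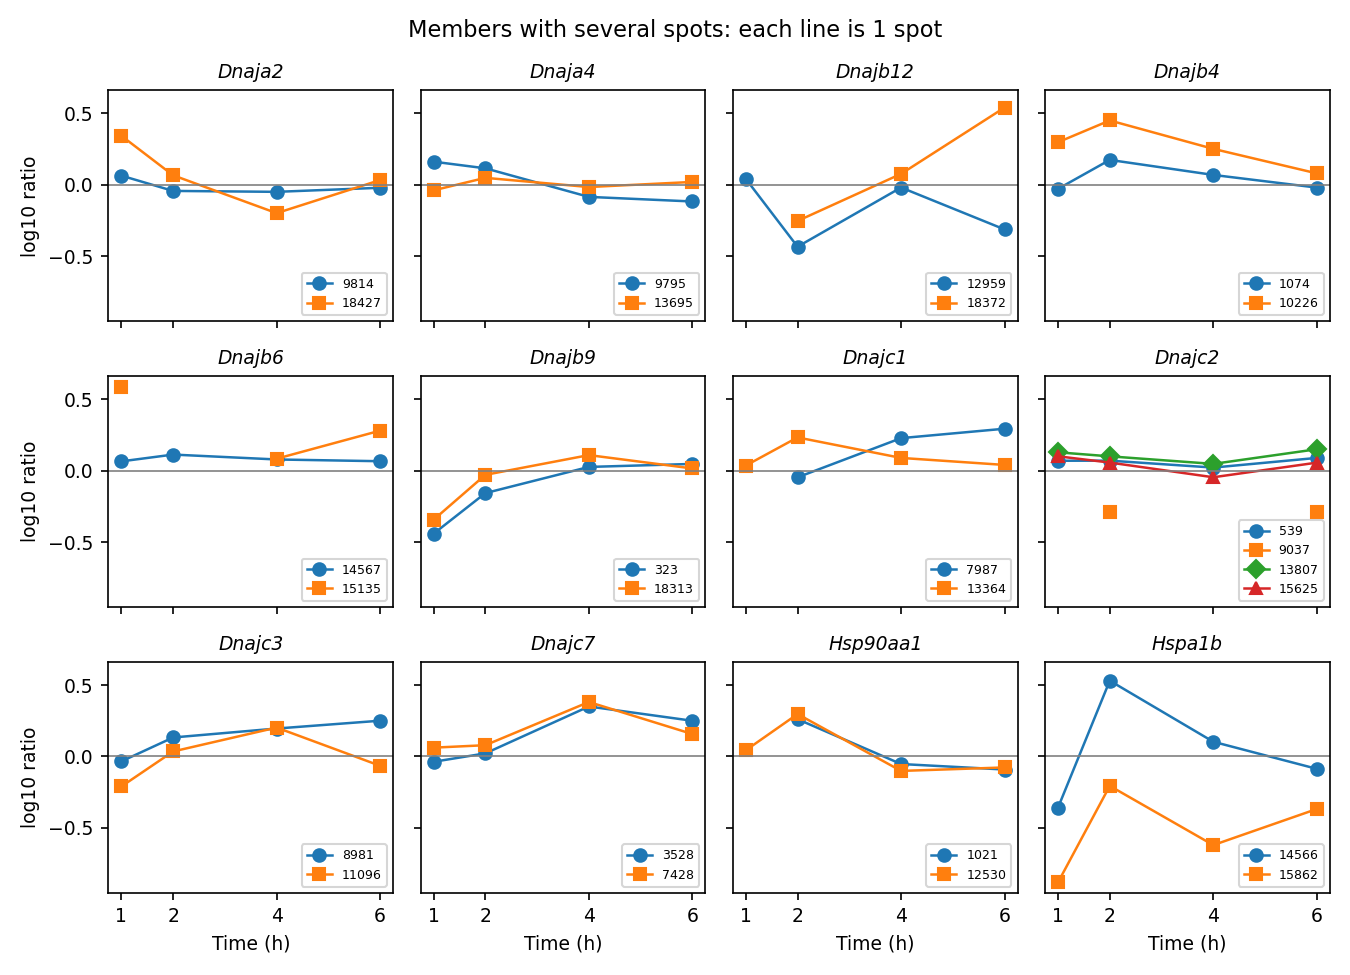
Log10 ratio against time after conditioning (h) for the 12 members with several spots, 1 panel per gene and 1 line per spot, named by spot number; a gap is a spot not measured. The lines of Hsp90aa1 and Dnajc7 nearly coincide, and those of Hspa1b run apart with a common peak at 2 h (0.530 and -0.206).

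The mean of the 4 arrays asks for a difference between the groups that all times share. Its error in limma comes from how the times differ, and 0 of 54 members and 0 of 8553 genes (0%) passed at an adjusted p under 0.05. At an unadjusted p under 0.05 there were 8 members, 14.8% of those tested, against 11.4% of all genes, 4 of them above 0 and 4 below (4.26% and 7.12% of all genes). Below 0 were Dnajc19 (mean -0.227, SD 0.0569, n = 4 arrays), Cct6a (mean -0.188, SD 0.0468, n = 4 arrays), Hspb3 (mean -0.187, SD 0.0762, n = 4 arrays) and Hspb9 (mean -0.338, SD 0.317, n = 4 arrays). Above 0 were Cryab (mean 0.195, SD 0.139, n = 4 arrays), Dnajb6 (mean 0.173, SD 0.109, n = 4 arrays), Dnajb4 (mean 0.160, SD 0.116, n = 4 arrays) and Hspa4 (mean 0.140, SD 0.0946, n = 4 arrays). Adjusted limma p-values of these 8 lay between 0.416 and 0.434. A single sign at every time was seen in 15 of 54 members, or 27.8%, against 21.8% of all genes, 9 above 0 and 6 below (10.1% and 11.8%), close to the background. Leaving out the 2 h array took the count at an unadjusted p under 0.05 to 5 of 54 members, and that of all genes from 973 of 8553 to 558 of 8685.

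A steady change with time was asked for by the slope on hours. In limma 0 of 54 members and 0 of 8553 genes (0%) passed at an adjusted p under 0.05. At an unadjusted p under 0.05 there were 2 members, 3.70% of those tested, against 14.6% of all genes, 1 upward and 1 downward (4.64% and 9.97%). They were Hspb9, with a slope of -0.126 per h (SE 0.0367, adjusted limma p 0.188), and Dnajc14, with 0.106 per h (SE 0.0373, adjusted limma p 0.256). In both the 6 h value was the farthest from 0. Without the 4 h array Hspb9 passed, at an adjusted limma p of 0.0375, among 418 genes that did. Leaving out the 1 h array gave 9 of 57 members at an unadjusted p under 0.05, beside 1330 of 9713 genes, and leaving out the 6 h array gave 5 of 55, beside 693 of 8731.

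The helpers of these chaperones lay near 0 at 2 h. Of 22 cochaperones of HSP70 and HSP90, 10 were above 0 at 2 h, with a median of -0.0164 and none past 2-fold. Stip1, the adaptor between HSP70 and HSP90, was at -0.172 at 2 h, and Bag3, which links HSP70 to autophagy and is itself a target of heat shock factor 1, at 0.0719. Ptges3 (p23) had the lowest 2 h value of the list at -0.285, with spots at -0.220 and -0.350. Of the heat shock factors, Hsf2 was at 0.105, 0.143, 0.227 and -0.430, and Hsf4 at -0.159, -0.263, -0.0567 and 0.660. Hsf1 and Hsp90ab1 were not analysed here. Prefoldin and other CCT helpers had a 2 h median of -0.0588, mitochondrial chaperones and proteases outside the members -0.0580, and genes that clear misfolded proteins 0.0471. In the mean over times, limma called 0 genes of these lists at an adjusted p under 0.05. At an unadjusted p under 0.05 there was 1 of the 20 cochaperones fitted, below the 11.4% of all genes. It was Sgta, a cochaperone for tail-anchored proteins, above 0 at 0.126 (n = 4 arrays). The heat shock factor, prefoldin, mitochondrial and clearance lists, with 4, 7, 9 and 7 genes fitted, had none. The largest means of the cochaperone list were those of Bag6 (0.180) and Bag5 (0.163), each measured on 3 arrays, and Cdc37l1 (0.150).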

How the data were processed

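The deposited values are log ratios of 2 channels per spot on 4 arrays, 1 per time, and per the labels MK was labelled with Cyanine-3 and MK C+S with Cyanine-5. They were taken as log10, which the authors' deposited table does not state, nor does it state direction, centring or scale. Each deposited column had a median of 0 with exact zeros included. The labels name no scanner, software or normalization. Without intensities, signal over background is unknown, and precision is limited by having 4 arrays.

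An exact 0 was read as not measured (22.7%, 9.34%, 7.39% and 10.0% of 16281 spots), and each array was centred on the median of its other spots. Spots with 1 gene symbol in the platform annotation were kept, and several measured spots of a gene were averaged. Counts past 2-fold and medians describe single arrays. The mean over times, the slope on hours and the 2 h contrast were fitted on all genes with 4 values, using limma 3.58.1 under R 4.3.3. The functions were lmFit and eBayes, two-sided and with Benjamini-Hochberg adjustment. A run on simulated data planted slopes and 2 h contrasts larger than any seen in the members. That run therefore does not show whether changes of the size seen here would be found. p-values measure the spread between times, since nothing says how many animals an array stands for. Members and lists were chosen with earlier results of these data known. Named were members past 2-fold at any time, the 3 largest means per class, members of 1 sign on all arrays, members with several spots, textbook heat shock genes and up to 3 genes per pathway list with the largest means; beyond this rule Canx, Pdia3, Hyou1, Stip1, Bag3, Ptges3, Sgta, Hsf2 and Tcp1 were chosen after their values were seen, and the members outside the rule (such as Cct8, Hspa4l, Dnajb11, Dnajc10 and Dnajc5) are named so that every member is accounted for. Promoter sequences are from RefSeq, matched by gene ID, and gene symbols follow the annotation. Alternatives covered zeros, centring, spot summary, thresholds, log base, filters, weights and leaving out each array; the 2 h contrast, the textbook count at 2 h and the grouping by compartment were added after seeing the data.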

Additional observations from a re-analysis of the deposited data

Results flagged for a closer look

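Both genes below passed 2-fold in opposite directions at 2 times, and each rests on 1 spot. Hspa13 was at -0.587 at 1 h and 0.341 at 4 h, a difference of 0.928. Dnajb8 was at -0.338 at 2 h and 0.436 at 6 h, a difference of 0.774. The difference between the times was not tested in either case, since each time has 1 array.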

How the results depend on the processing

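No paired analysis was possible because each time has 1 array and the labels give no replicate numbers. The number of members past the size threshold was 7, 9, 4 and 6 at 1, 2, 4 and 6 h. It was 12, 17, 14 and 16 at 1.5-fold and 2, 2, 1 and 3 at 3-fold, 0, 1, 0 and 1 with natural logs and 0, 0, 0 and 0 with base-2 logs. No share of all genes was counted at these other thresholds, so these counts have no background beside them. Among the 9, 11, 12 and 12 members with 2 or more measured spots, the number past 2-fold was 3, 2, 1 and 0. It stayed within 1.5 times of the main count with exact zeros kept, no centring, the median of spots, each spot on its own and the running median removed. The members' median at 2 h, 0.0491, was 0.0164 with the running median removed. The other recomputed medians, at 2 h and at 1, 4 and 6 h, moved by less than a size taken from the spots. That size was the pooled SD between spots of 1 gene, divided by the square root of the number of members measured. It leaves out the spread between members and is not an error of the median. The textbook count at 2 h ranged from 10 of 13 to 12 of 15 spots. In the mean over times and in the 2 h contrast 0 members passed under each alternative run, arrays left out included. For the slope the count ranged from 0 to 1 over the arrays left out, the 1 being Hspb9 without the 4 h array, and was 0 under the other alternatives. Of 378 recomputed means of 44 members, 5 moved by more than the SD between arrays (Dnajb6, Dnajc2, Dnajc4 and Hsp90b1). A change of sign was seen in 33, spread over 22 of the 44 members, none of them called.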
